A study of Mus musculus with 8 samples.

Results

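The effect of losing fibulin-4 that the ascending and descending aorta of newborn mice have in common was measured on all 8 arrays of the series, 4 from knockout and 4 from wild-type tissue. It is the knockout minus wild-type difference within each segment, averaged over both segments, so that the segment enters as a factor. Each of the 22180 genes with a symbol of its own on the array was tested, out of 41345 probe sets. The mice were C57BL/6 pups at postnatal day 0, either wild-type or carrying a fibulin-4 knockout. The ascending segment was cut between the aortic valve and the ductus arteriosus, and the descending segment between the level given as the vena cava and the diaphragm. Each array held RNA of 1 pool of 8 segments of like genotype, and each of the 4 groups (wild-type ascending, wild-type descending, knockout ascending, knockout descending) had 2 pools. The RNA was amplified from 5 ng before labelling. Both arrays of a group are labelled as biological replicates, and the values are on a log2 scale, on which a difference of 1 is a doubling.

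Fibulin-4 is a secreted matrix protein that brings lysyl oxidase to tropoelastin. Without it, elastin is poorly cross-linked, elastic lamellae are broken, and the aorta of such mice is tortuous and prone to aneurysm. In the wall of a newborn's aorta, smooth muscle cells make elastin, fibrillin microfibrils and collagens, hold on to them through integrins, and read wall stress through those contacts. Thrombospondins and CCN proteins are secreted regulators of these contacts and of TGF-beta, a growth factor stored in the matrix.

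Array medians lay between 4.68 and 4.89. The interquartile range of the genes was 1.80 and 1.74 in replicate 2 of wild-type ascending and wild-type descending aorta and 2.14 to 2.28 on the other 6 arrays, so results are also given without these 2 narrow wild-type arrays. That leaves 1 wild-type array per segment. The spread in that fit, and any p from it, then comes from the knockout pools alone. Across genes, the 2 arrays of a group correlated with a Spearman's rho of 0.899 to 0.966. The median standard error of the averaged change was 0.21. The targeted gene was not analysed here, and the genotype labels were therefore not checked against it. Genes that define contractile smooth muscle were bright on every array, where gene means ran from 1.31 to 13.2: the actin gene Acta2 read 12.10 to 12.45, and the myosin heavy chain gene Myh11 read 8.70 to 9.22.

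Averaged over segments, 16 genes differed at a Benjamini-Hochberg adjusted p under 0.05 in limma, 0.0721% of those tested. Of these, 15 rose (0.0676%) and 1 fell (0.00451%). The rises were 2.81-fold to 10.8-fold, and they came from matrix proteins (Col8a1, Col11a1, Col12a1, Thbs1, Svep1), integrin-related proteins (Itga11, Itgbl1), protease inhibitors (Serpina3n, Cd109), secreted signals and their binding proteins (Igfbp2, Vegfd, Adm), and intracellular proteins (Mt2, Errfi1, Ahnak2). In bulk tissue, more cells of a type and more RNA per cell cannot be told apart. In 15 of the 16 genes all 4 knockout arrays lay beyond all 4 wild-type arrays, as they did in 4.76% of all genes on the higher side and 1.98% on the lower side. In all 16 they did so within each segment (7.81% of all genes on the higher and 4.04% on the lower side). All 16 were picked by their p on the same arrays, so their separation adds no further support. A second quantile normalization, over all 22180 genes with a symbol (the named genes), left 2 calls, Col8a1 and Col11a1. When every probe set was tested, 1 probe set without a gene name passed and none of the 16 genes did. Leaving out 1 array also moved the number of calls. Dropping wild-type ascending replicate 1 or 2 gave 50 or 24 calls, and dropping wild-type descending replicate 1 or 2 gave 2 or 4. It was 0 without knockout ascending replicate 2 (where 1031 genes were higher and 562 lower at an unadjusted p under 0.05 in limma) and 1 without each of the other 3 knockout arrays. With both narrow wild-type arrays left out it was 25 (13 higher and 12 lower), which included 12 of the 16.

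**Figure D1:**
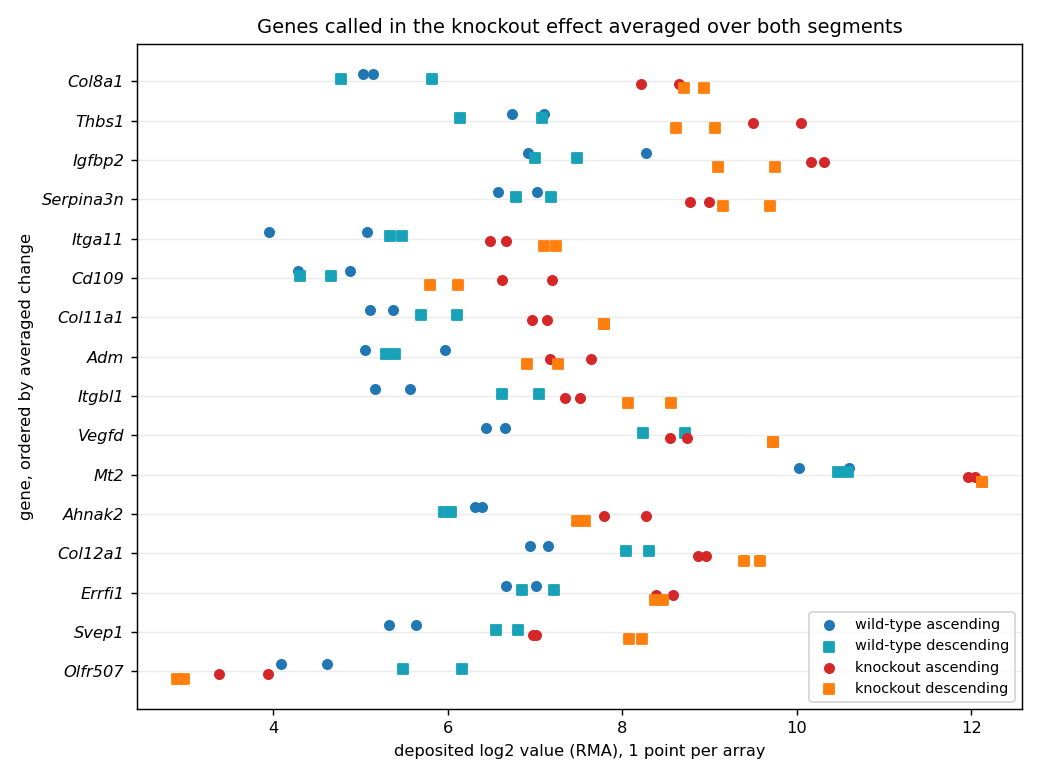
Deposited log2 value (horizontal axis) of each of the 16 genes that passed the adjusted p, 1 point per array, with circles for ascending and squares for descending aorta, blue shades for wild-type and red and orange for knockout. Col8a1, at the top, read 4.78 to 5.82 in wild-type and 8.22 to 8.94 in knockout arrays, and Vegfd is the gene in which the 2 genotypes overlap across segments.

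Col8a1 encodes the alpha 1 chain of type VIII collagen, a short-chain collagen that forms open networks beneath endothelium and around smooth muscle cells. It read 5.04 and 5.14 in the wild-type ascending pools, 5.82 and 4.78 in the wild-type descending pools, 8.22 and 8.65 in the knockout ascending pools and 8.94 and 8.71 in the knockout descending pools. The groups stood far apart in both segments, and the averaged log2 change was 3.44 (SE 0.25, limma adjusted p 0.00280). This is a fold of 10.8, with a 95% interval of 7.36 to 15.9. With any 1 array left out it lay between 3.18 and 3.70. The other short-chain chain gene, Col8a2, stood at 0.28 on average and did not pass.

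Col11a1 and Col12a1 encode a minor fibrillar collagen and a collagen that sits on the fibril surface. Col11a1 read 5.37 and 5.11 in wild-type ascending, 6.11 and 5.70 in wild-type descending, 7.14 and 6.97 in knockout ascending and 7.79 and 7.79 in knockout descending aorta, and rose by 1.85 (SE 0.18, adjusted p 0.0144). Col12a1 read 6.95 and 7.15, then 8.31 and 8.05, against 8.87 and 8.95, then 9.58 and 9.39 in the same order of groups, and rose by 1.59 (SE 0.17, adjusted p 0.0202). Both genes read higher in the descending than in the ascending segment in each genotype, and the knockout added a further step in each. Among the 14 measured genes of fibrillar and fibril-associated collagens, these were the only 2 to pass. The main fibrillar collagens of the wall did not: the log2 change was 0.45 (SE 0.17) for Col1a1, 0.03 (SE 0.17) for Col1a2 and 0.16 (SE 0.17) for Col3a1. The sign for Col1a2 turned without wild-type ascending replicate 1 (-0.06).

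Thbs1 encodes thrombospondin 1, a secreted protein that binds matrix and cell surface receptors and can activate latent TGF-beta. It read 6.74 and 7.10 in wild-type ascending, 7.08 and 6.15 in wild-type descending, 9.50 and 10.05 in knockout ascending and 8.61 and 9.06 in knockout descending aorta. The lowest knockout array was above the highest wild-type array, and the change was 2.54 (SE 0.26, adjusted p 0.0144). Svep1, which encodes a large secreted adhesion protein, read 5.33 to 6.81 in wild-type and 6.97 to 8.23 in knockout arrays and rose by 1.49 (SE 0.18, adjusted p 0.0202). Its call also ended when the 2 probe sets of the gene were averaged and without both narrow wild-type arrays, as did that of Ahnak2.

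Itga11 encodes the integrin alpha 11 subunit, a collagen receptor of mesenchymal cells. It read 3.95 and 5.08 in wild-type ascending, 5.48 and 5.34 in wild-type descending, 6.67 and 6.49 in knockout ascending and 7.24 and 7.10 in knockout descending aorta. Every knockout array was higher, with a change of 1.91 (SE 0.25, adjusted p 0.0335). Itgbl1, which encodes a secreted protein with integrin beta-like repeats, read 5.16 to 7.04 in wild-type and 7.35 to 8.56 in knockout arrays and rose by 1.77 (SE 0.21, adjusted p 0.0202). The integrin gene nearest to the threshold without passing was Itga5, the fibronectin receptor subunit, which read 7.35 to 7.73 in wild-type and 8.41 to 9.42 in knockout arrays (1.35, SE 0.19, adjusted p 0.0536).

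Serpina3n encodes a secreted inhibitor of serine proteases. Its values were 7.03 and 6.58 in wild-type ascending, 6.79 and 7.19 in wild-type descending, 8.77 and 9.0 in knockout ascending and 9.15 and 9.70 in knockout descending aorta. No array overlapped, and the change was 2.26 (SE 0.21, adjusted p 0.0144). Cd109, a membrane-anchored relative of alpha 2 macroglobulin that also binds TGF-beta, read 4.29 to 4.89 in wild-type arrays, 6.63 and 7.20 in knockout ascending and 6.12 and 5.80 in knockout descending aorta. It rose by 1.90 (SE 0.22, adjusted p 0.0202), and its call also ended without both narrow wild-type arrays.

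Igfbp2, which encodes a binding protein that carries and restrains insulin-like growth factors, read 8.27 and 6.92 in wild-type ascending, 7.48 and 7.0 in wild-type descending, 10.17 and 10.31 in knockout ascending and 9.75 and 9.10 in knockout descending aorta. The 2 wild-type ascending pools were far from each other, yet both lay below all knockout pools, and the change was 2.41 (SE 0.30, adjusted p 0.0287). Adm encodes adrenomedullin, a vasodilator peptide. It read 5.98 and 5.05 in wild-type ascending, 5.40 and 5.29 in wild-type descending, 7.64 and 7.17 in knockout ascending and 6.91 and 7.26 in knockout descending aorta, and rose by 1.82 (SE 0.24, adjusted p 0.0358). This call also ended without both narrow wild-type arrays and under quantile normalization over every probe set.

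Vegfd encodes a growth factor of the VEGF family that acts on lymphatic and blood vessel endothelium. It read 6.43 and 6.66 in wild-type ascending and 8.72 and 8.24 in wild-type descending aorta, against 8.75 and 8.54 in knockout ascending and 9.72 and 9.73 in knockout descending aorta. Within each segment the knockout was higher, but knockout ascending and wild-type descending pools overlapped, since the wild-type segments already differed. The averaged change was 1.67 (SE 0.19, adjusted p 0.0202).

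Mt2 encodes a metallothionein, a small protein that binds zinc and copper and is induced by metals, glucocorticoids and oxidants. It read 10.02 and 10.59 in wild-type ascending, 10.47 and 10.58 in wild-type descending, 11.96 and 12.04 in knockout ascending and 12.12 and 12.12 in knockout descending aorta, and rose by 1.64 (SE 0.19, adjusted p 0.0202). Its neighbour Mt1 read 10.23, 10.48, 10.19 and 10.43 in wild-type arrays, against 11.28, 10.95, 11.21 and 11.02 in knockout arrays (ascending pools first). Every knockout array of Mt1 was above every wild-type array, but its change of 0.78 (SE 0.18) did not pass (adjusted p 0.198). The upstream sequences of these 2 genes are shown because metallothioneins are known targets of the metal-sensing factor MTF-1. Each is the 250 bases before the RefSeq start of the gene in GRCm38.p6, both on the plus strand, Mt2 at chr8:94172368-94172617 and Mt1 at chr8:94178839-94179088. Capitals mark matches to the metal response core, TGCGCNC or TGCACNC on either strand, of which Mt2 has 3 and Mt1 has 1.
Mt2: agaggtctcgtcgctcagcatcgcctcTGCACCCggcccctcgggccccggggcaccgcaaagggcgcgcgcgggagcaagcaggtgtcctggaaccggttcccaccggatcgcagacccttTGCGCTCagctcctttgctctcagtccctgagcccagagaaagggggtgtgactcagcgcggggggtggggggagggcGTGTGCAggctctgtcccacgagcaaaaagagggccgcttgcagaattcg
Mt1: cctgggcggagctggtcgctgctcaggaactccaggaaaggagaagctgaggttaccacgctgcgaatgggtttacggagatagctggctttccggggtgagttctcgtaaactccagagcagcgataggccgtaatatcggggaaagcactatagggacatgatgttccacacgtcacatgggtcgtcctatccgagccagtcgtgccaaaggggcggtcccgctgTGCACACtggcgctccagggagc
The core is short, and 21.4% of all 32851 RefSeq promoter windows of this length hold at least 1 match. Among the 14 windows of the 12 genes that rose and had an entry, 3 held one.

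Errfi1, which encodes an inhibitor of EGF receptor signalling, read 6.67 to 7.22 in wild-type and 8.38 to 8.58 in knockout arrays and rose by 1.52 (SE 0.19, adjusted p 0.0242). Its call also ended under quantile normalization over every probe set. Ahnak2, which encodes a very large scaffold protein, read 5.96 to 6.40 in wild-type and 7.48 to 8.28 in knockout arrays and rose by 1.60 (SE 0.18, adjusted p 0.0202). Neither gene overlapped between genotypes.

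Olfr507, an olfactory receptor gene, was the gene that fell. It read 4.10 and 4.62 in wild-type ascending, 6.16 and 5.49 in wild-type descending, 3.95 and 3.38 in knockout ascending and 2.99 and 2.90 in knockout descending aorta, a change of -1.79 (SE 0.23, adjusted p 0.0335). The gap was narrow in the ascending aorta and wide in the descending aorta. The fall therefore rested mostly on 1 segment, and its call ended in the model without an interaction, under both quantile normalizations and with arrays centred on the median of every probe set.

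The 15 rises were 1.51 to 3.35 in the ascending and 1.24 to 3.53 in the descending aorta. The descending change minus the ascending change ran from -0.85 to 0.36, and the 95% intervals of these differences reached from -1.86 to 1.31. In 12 of the 15 the change was larger in the ascending aorta and in 3 (Col8a1, Serpina3n, Col11a1) in the descending aorta. For Col8a1 the changes were 3.35 and 3.53, a difference of 0.18 (95% interval -0.93 to 1.29). For Thbs1 they were 2.86 and 2.22, a difference of -0.63 (-1.79 to 0.52). Mt2 changed by 1.69 and 1.59 and Svep1 by 1.51 and 1.47. For no gene on the array did the knockout effect differ between segments at an adjusted p under 0.05 in limma (0%). At an unadjusted p under 0.05 it did for 733 genes (3.3%), fewer than the 1109 expected by chance. Vegfd was among the 733, with 2.10 in the ascending and 1.24 in the descending aorta.

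**Figure D2:**
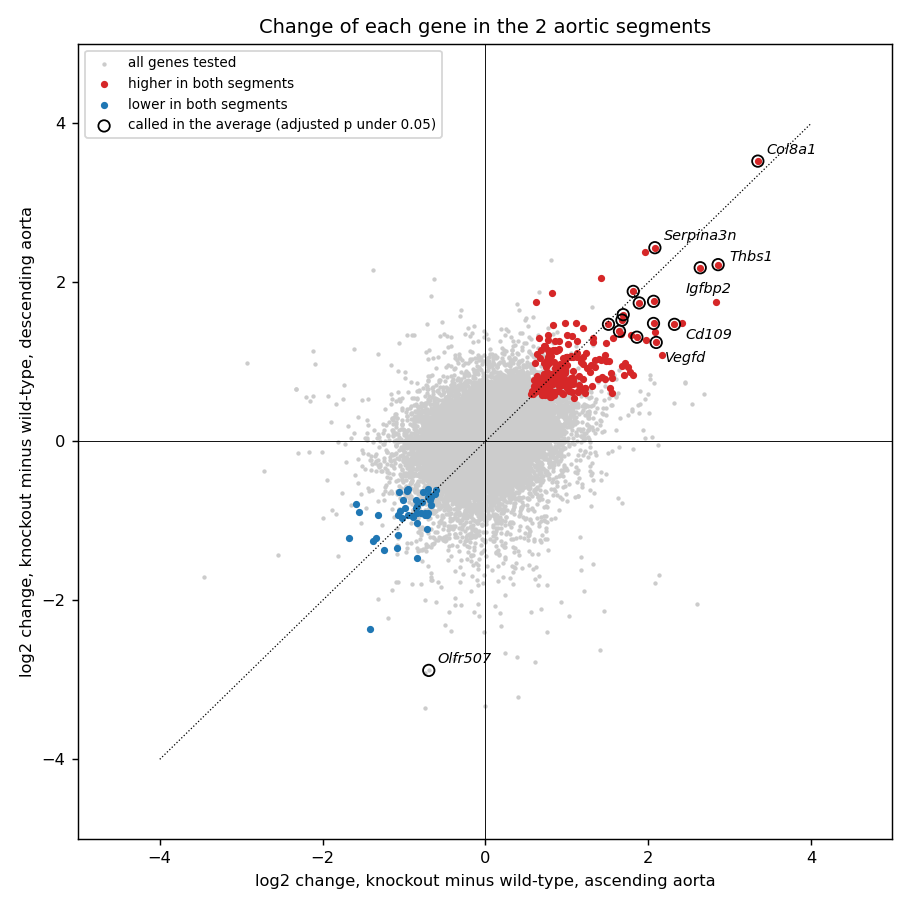
Log2 change of each of the 22180 genes in the ascending aorta (horizontal) and in the descending aorta (vertical), knockout minus wild-type; red and blue points have an unadjusted p under 0.05 in both segments, circles mark the 16 genes that passed in the average, and the dotted line marks equal change. The 227 red points outnumber the 44 blue ones, and Olfr507 lies far below the dotted line, at -0.70 and -2.88.

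The contrasts of the ascending and of the descending aorta use no array in common. Both come from the same fit, however, and share its estimate of the spread of each gene. Each also holds a narrow wild-type array, so passing in both segments is not independent evidence. At an unadjusted p under 0.05 in each, 227 genes (1.02%) were higher in both segments and 44 (0.198%) lower in both. Without both narrow wild-type arrays these counts were 170 and 123. The higher genes had a median averaged change of 0.91 and a median level of 6.83, and in 197 of them the 4 knockout arrays lay above the 4 wild-type arrays. The lower genes had a median change of -0.86 and a median level of 4.29, and 36 did not overlap. Over all genes, such separation was seen in 4.76% on the higher and 1.98% on the lower side. Because these genes were picked by their p on the same arrays, their separation adds no further support. Of the 44 lower genes, 22 were by name predicted genes, microRNAs, small nucleolar RNAs or olfactory and vomeronasal receptors, against 1 of the 227 higher genes. The lower genes were also dimmer. With all genes split by mean level into 5 equal groups, the dimmest 2 groups held 29 of the 44 lower and 8 of the 227 higher genes. The share of these classes among all genes, or among dim genes, was not counted. Whether the contrast goes beyond the level of the genes was not tested. The 227 and 44 are counts at an unadjusted p, and of the genes described next none passed in the averaged test.

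The higher genes with the smallest p in both segments included several of matrix and adhesion. Fat1, a giant cadherin of cell contacts, read 7.78 to 7.92 in the wild-type and 8.82 to 8.99 in the knockout arrays, a narrow spread within each genotype (1.06, SE 0.17, adjusted p 0.0820). Plod2, the lysyl hydroxylase that prepares collagen telopeptides for cross-linking, read 6.90 and 6.75 in wild-type ascending, 7.07 and 6.10 in wild-type descending, 8.14 and 8.15 in knockout ascending and 7.79 and 7.96 in knockout descending aorta (1.31, SE 0.23, adjusted p 0.103). Adamts8, a secreted metalloprotease, read 4.60 to 5.03 against 5.74 to 6.08. All 3 were separated between genotypes with no overlap.

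Flt1, a VEGF receptor, read 5.86 to 6.51 in wild-type and 6.91 to 7.47 in knockout arrays (1.17, SE 0.20, adjusted p 0.0904). Of 19 endothelial markers, by contrast, 14 were below 0. P2ry6, a receptor for extracellular UDP, had equal changes of 1.12 in the 2 segments, Cers6, a ceramide synthase, had 1.32 and 1.25, and Prag1, a pseudokinase of the cytoskeleton, had 1.00 and 1.06. Fkbp11, a prolyl isomerase of the endoplasmic reticulum, had 0.99 and 1.06. The other 4 genes of this rank were C4b of the complement cascade (1.28), Hcls1 of blood cells (1.22), Elmod1 (1.12) and the secreted serine protease homologue Prss35 (1.03).

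The lower genes with the smallest p in both segments were mostly dim. Ptk6, a non-receptor tyrosine kinase of epithelia, read 4.10 to 4.51 in wild-type and 3.19 to 3.52 in knockout arrays (-0.92, SE 0.18, adjusted p 0.132). Srfbp1, a cofactor of serum response factor, read 5.56 to 6.63 against 4.41 to 4.87 (-1.28), and the chemokine receptor gene Cxcr6 read 4.44 to 4.71 against 3.59 to 3.88 (-0.83). Btbd35f27 (-1.22), Apol7b (-1.12), Ces2b (-1.0), Inmt (-0.93), Slc26a3 (-0.87), Rprl2 (-0.84), Oas1e (-0.80) and Junos (-0.77) followed, all with genotypes that did not overlap. Of these, Rprl2 was not dim, with a mean level of 7.66. Cox8b, a cytochrome oxidase subunit of brown fat and muscle, was also bright: it read 9.0 and 7.31 in wild-type ascending, 10.27 and 10.53 in wild-type descending, 7.26 and 6.20 in knockout ascending and 7.94 and 8.16 in knockout descending aorta (-1.89, SE 0.37, adjusted p 0.132), and knockout descending pools overlapped wild-type ascending ones.

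Direction followed the level of a gene. When the genes were split by mean level into 5 groups of 4436, the median change was -0.14 in the dimmest, then -0.12, -0.04, 0.14 and 0.24 in the brightest, where level was 6.40 or more. At an unadjusted p under 0.05 in the averaged effect, 2528 genes (11.4%) differed, 1678 higher (7.57%) and 850 lower (3.83%). In the brightest group 20.8% of genes were higher and 1.04% lower, and in the dimmest 0.947% were higher and 7.60% lower. The 2 narrow wild-type arrays moved with this pattern: without them the medians were -0.09 in the dimmest and 0.09 in the brightest group, and 1500 genes were higher and 1484 lower (6.76% and 6.69%). Of the genes past the unadjusted p, 66.4% were higher in the knockout. That share was 50.3% without both narrow arrays, 56.0% without wild-type ascending replicate 2 alone, 56.8% after a second quantile normalization of the named genes (4.92% of all genes higher and 3.75% lower) and 71.5% after one over every probe set. It was 83.6% with arrays centred on the median of every probe set and 77.9% without the dimmest 25% of genes. The part of the narrow arrays in the excess of higher genes was not tested beyond these values.

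**Figure D3:**
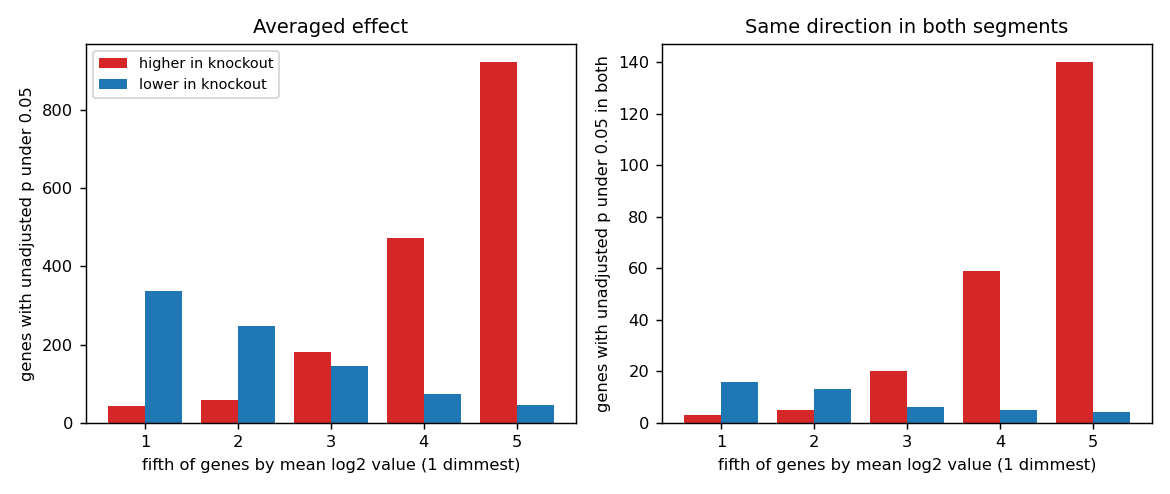
Number of genes (vertical axis) higher (red) and lower (blue) in the knockout at an unadjusted p under 0.05 in 5 equal groups of genes ordered by mean log2 value, for the averaged effect (left) and in both segments (right). Higher genes run from 42 in the dimmest to 923 in the brightest group on the left and lower genes from 337 to 46.

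Lists of genes by function were read against these shares. All 24 had a median level in the brighter 2 of the 5 level groups, where 10.7% and 20.8% of genes were higher at an unadjusted p under 0.05, against 7.57% of all genes. Counting the cell type marker lists too, 32 of 35 lists had a median level in these 2 groups. Over all genes 49.8% of changes were above 0, and the median was -0.0013. In the 2 brighter groups, however, the median change of all genes was already 0.14 and 0.24. The share of changes above 0 in these groups was not counted, so counts of members above 0 lack a like background. All 24 list medians were above 0, among them that of VEGF and vasoactive genes (0.04), which was -0.01 after the second quantile normalization and without both narrow arrays, and -0.0026 to 0.25 with 1 array left out. Apart from the 16 genes above, members are given as values and did not pass the adjusted p.

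**Figure D4:**
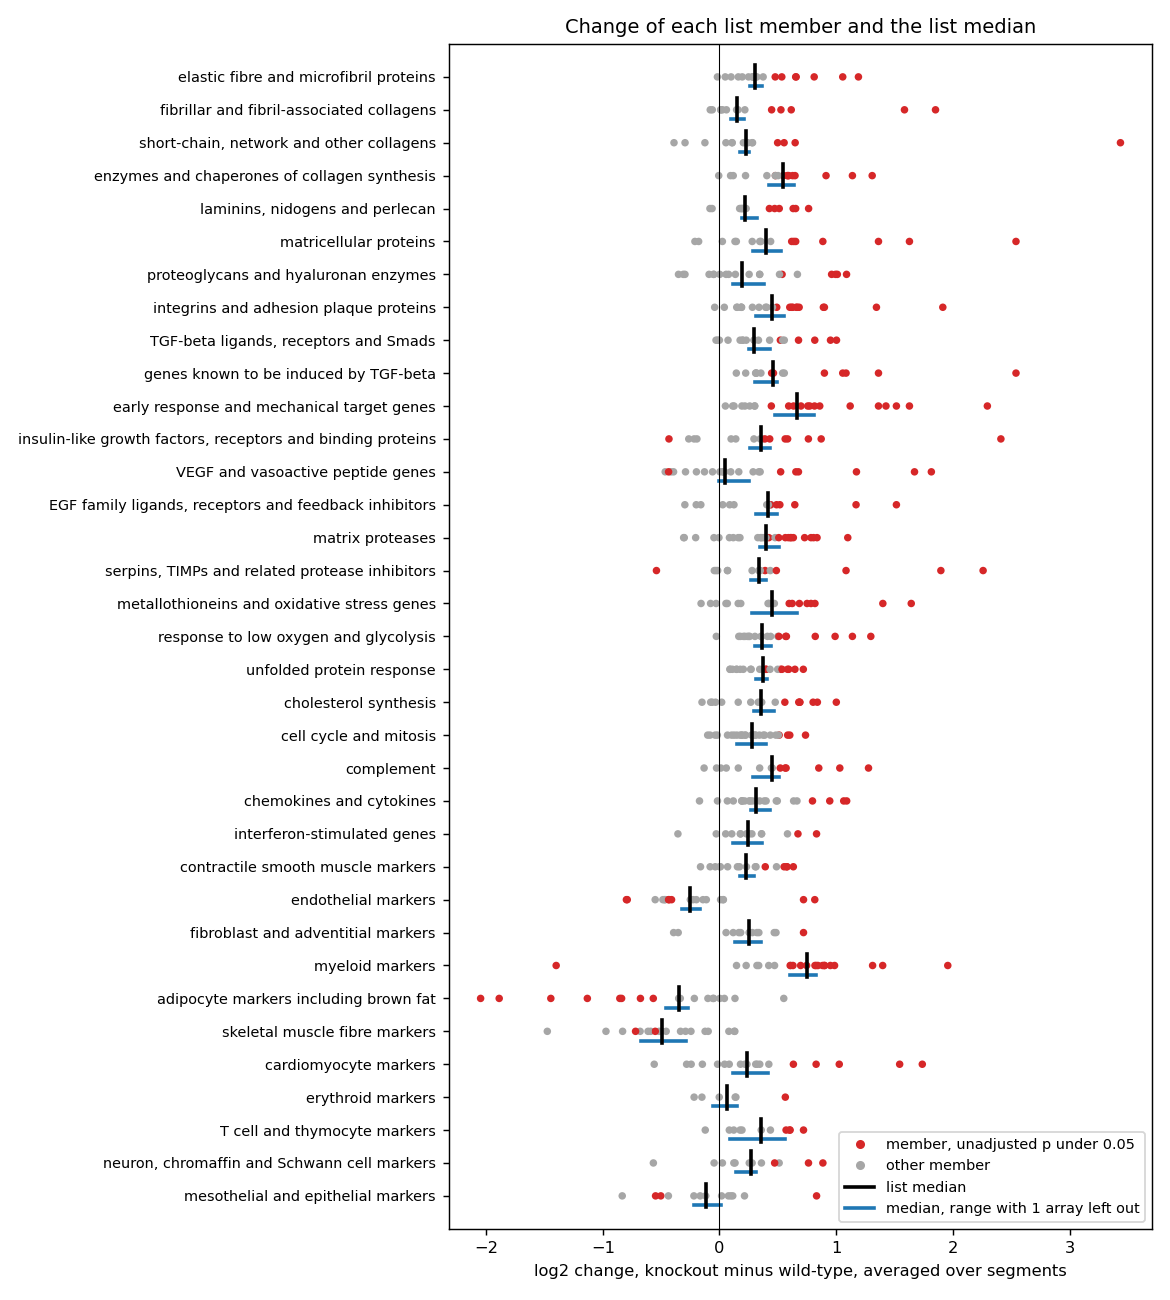
Averaged log2 change (horizontal axis) of every measured member of each list, with the list median in black and, in blue, the range of that median when 1 array at a time is left out. Myeloid markers (0.75) and early response genes (0.67) have the highest medians, and skeletal muscle fibre markers (-0.50) the lowest.

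Of the genes for elastic fibres and microfibrils, 19 of 20 measured members were above 0, with a median of 0.30 (0.15 after the second quantile normalization), and 7 were higher at an unadjusted p under 0.05. The median level of the list, 8.67, lay in the brightest level group, where the median change of all genes was 0.24. The members with the largest changes were Fbn2, a microfibril protein of developing tissue (1.19, SE 0.18, adjusted p 0.0820), and Ltbp2, a binding partner of fibrillin and fibulin-5 (1.06, SE 0.18). Fbn2 read 7.35 and 7.37 in wild-type ascending, 6.87 and 6.36 in wild-type descending, 7.92 and 8.06 in knockout ascending and 8.41 and 8.34 in knockout descending aorta, so the wild-type order of the segments was turned in the knockout. Lox, whose product is the lysyl oxidase that fibulin-4 brings to elastin, read 10.06 to 10.56 in wild-type and 11.10 to 11.32 in knockout arrays (0.81, SE 0.19, adjusted p 0.197). Eln, the elastin gene, read 11.74 to 11.99 against 12.01 to 12.12, a change of 0.16 (SE 0.17). Fbln5 (0.31), Loxl1 (0.30) and Mfap4 (0.28) also had knockout arrays all above wild-type arrays, at changes that did not reach an unadjusted p of 0.05.

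The enzymes and chaperones of collagen synthesis had 16 of 17 members above 0 and 10 higher at an unadjusted p under 0.05, with a median of 0.55 (0.34 after the second quantile normalization and 0.39 without both narrow arrays). The 3 prolyl hydroxylase alpha subunits P4ha1 (1.14), P4ha3 (0.91) and P4ha2 (0.65), which stabilise the collagen helix, each had all knockout arrays above all wild-type arrays. Of the laminin, nidogen and perlecan genes of the basement membrane 6 of 14 were higher at that threshold, with Nid1 at 0.76 and Lamb1 at 0.65. The list median was 0.22 (0.15 after the second quantile normalization). Its median level of 7.78 lay in the brightest level group, where the median change of all genes was 0.24, so the list median stood near its background. The type IV collagen genes Col4a1 (0.55) and Col4a2 (0.65) of the same layer had values like those of Nid1 and Lamb1.

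Matricellular proteins had 14 of 16 members above 0 and 7 higher at an unadjusted p under 0.05, with a median of 0.40, which was 0.20 without both narrow arrays. After Thbs1 the largest were Ccn1 (1.63, SE 0.32, adjusted p 0.132), Ccn2 (1.36, SE 0.25, adjusted p 0.111) and Thbs2 (0.89, SE 0.19), while Postn stood at 0.14. Proteoglycan genes had 5 of 20 higher, including the large aggregating proteoglycan gene Acan (0.96), the hyaluronan-binding Tnfaip6 (1.09) and Prelp (0.99), while the small proteoglycan genes Dcn (0.06) and Lum (0.25) did not reach that threshold.

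In the list of integrins and adhesion plaque proteins, 22 of 23 were above 0 and 11 were higher at an unadjusted p under 0.05, with a median of 0.45 (0.25 after the second quantile normalization). Beside Itga11 and Itga5 they included Fn1, the fibronectin gene (0.90, SE 0.18), Itgav (0.89, SE 0.19), Itga4 (0.68) and Vcl (0.66), the gene of the plaque protein vinculin. Fn1 read 10.71 and 11.12 in wild-type ascending, 11.53 and 11.33 in wild-type descending, 11.96 and 11.99 in knockout ascending and 12.17 and 12.18 in knockout descending aorta, with no overlap. The muscle integrin gene Itga7 stood at -0.04 and the plaque protein gene Pxn at 0.15.

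Genes that answer quickly to growth factors and mechanical load were all above 0 (22 of 22), and 14 were higher at an unadjusted p under 0.05. Their median of 0.67 was 0.34 without both narrow arrays. Ankrd1, a muscle ankyrin repeat gene and known target of the YAP and TEAD factors, read 4.57 and 5.28 in wild-type ascending, 5.67 and 4.85 in wild-type descending, 7.20 and 8.31 in knockout ascending and 6.45 and 7.58 in knockout descending aorta (2.30, SE 0.35, adjusted p 0.0820). Ccn1 read 8.10, 9.01, 8.61 and 8.06 in the wild-type arrays and 10.41, 10.65, 8.96 and 10.27 in the knockout arrays in the same order. All Ankrd1 knockout arrays were above the wild-type ones, and knockout descending replicate 1 of Ccn1 lay within the wild-type range. Other members were Ier3 (1.43), Egr1 (1.12), Junb (0.86), Nr4a1 (0.81) and Fos (0.76), while Jun (0.13) and Klf4 (0.05) were near 0.

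The upstream sequences of Ankrd1 and Ccn1 are shown as those of 2 members of this list known as TEAD targets; Ccn2, another such member, was not matched. Both lie on the minus strand of GRCm38.p6 and are written 5′ to 3′ in the direction of the gene, Ankrd1 at chr19:36119845-36120094 and Ccn1 at chr3:145649986-145650235. Capitals mark the TEAD core CATTCC or its reverse complement GGAATG, with 2 matches in Ankrd1 and 1 in Ccn1.
Ankrd1: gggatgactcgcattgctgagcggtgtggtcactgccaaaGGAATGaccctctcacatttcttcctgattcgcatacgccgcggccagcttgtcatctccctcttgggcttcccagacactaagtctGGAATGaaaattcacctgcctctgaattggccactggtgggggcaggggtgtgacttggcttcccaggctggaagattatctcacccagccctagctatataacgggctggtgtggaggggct
Ccn1: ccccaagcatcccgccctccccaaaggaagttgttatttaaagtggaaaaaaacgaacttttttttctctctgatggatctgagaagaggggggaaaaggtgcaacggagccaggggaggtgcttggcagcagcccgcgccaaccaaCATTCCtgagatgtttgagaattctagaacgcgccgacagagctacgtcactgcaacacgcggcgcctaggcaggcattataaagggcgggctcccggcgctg
The TEAD core occurs in 12.6% of all windows of this length, in 3 of the 14 windows of genes that rose and in 17.1% of the 205 windows of genes higher in both segments. The AP-1 core TGANTCA occurs in 6.75% of all windows and 6.83% of those 205, the hypoxia core ACGTG in 16.6% and 19.0%, and the metal response core in 21.4% and 30.2%. Both strands were searched, no marked site overlaps a match to another of these cores, and the shares carry no test.

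Of the TGF-beta ligands, receptors and Smads, 16 of 19 were above 0 and 5 higher at an unadjusted p under 0.05. The list median was 0.30 (0.19 after the second quantile normalization). Its median level of 6.94 lay in the brightest level group, where the median change of all genes was 0.24. The ligand gene Tgfb3 (1.00, SE 0.17, adjusted p 0.0989) and Lrrc32, which holds latent TGF-beta at the cell surface (0.95, SE 0.18), had knockout arrays all above wild-type arrays. Tgfb2 (0.52), Tgfb1 (0.43) and the receptor genes Tgfbr1 (0.33) and Tgfbr2 (0.30) had smaller values. Of genes known to be induced by TGF-beta, 15 of 15 were above 0, with a median of 0.46 (0.37 without both narrow arrays and 0.31 without wild-type descending replicate 2 alone). They included Timp1, an inhibitor of matrix metalloproteases (1.08), and Pmepa1 (0.46), a feedback inhibitor of the pathway. Thbs1, Ccn2 and Fn1 stand in this list too.

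The insulin-like growth factor list had 7 of 16 genes higher and 1 lower at an unadjusted p under 0.05. After Igfbp2 the largest was Igfbp3 (0.87, SE 0.17), which read 9.09 to 9.20 in wild-type and 9.67 to 10.25 in knockout arrays, and the lower gene was Igfbp5 (-0.43). The ligand gene Igf2 stood at 0.56 and Igf1 at -0.19. In the EGF family the ligand gene Hbegf had 1.88 in the ascending and 0.46 in the descending aorta (average 1.17, SE 0.20, adjusted p 0.0989). Of VEGF and vasoactive genes, 6 of 23 were higher and 1 lower: Edn1, the gene of the constrictor endothelin, stood at 0.68 and Ace, the angiotensin-converting enzyme gene, at 0.35, while the endothelial Nos3 stood at -0.44.

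Matrix proteases had 12 of 27 genes higher and none lower at an unadjusted p under 0.05, with a median of 0.40. The lysosomal elastase gene Ctss (1.10, SE 0.20) read 7.05 to 7.78 in wild-type and 8.18 to 8.88 in knockout arrays. Adam9 (0.84), Mmp2 (0.63), Mmp9 (0.59) and Mmp14 (0.42) were also higher at that threshold. Among inhibitors, Timp4 was the lower one (-0.54), and Timp2 (0.35) and Timp3 (0.34) stood near the list median of 0.34 (0.14 after the second quantile normalization).

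Genes of metallothioneins and oxidative stress had 8 of 18 higher, including Hmox1, the heme-degrading oxygenase (1.40, SE 0.28, adjusted p 0.132), and Gclc, a subunit of the first enzyme of glutathione synthesis (0.68). Hmox1 stood at 2.07 in the ascending and 0.73 in the descending aorta. Sod1 (0.07), Sod2 (-0.08) and Nqo1 (0.06) were near 0. Of genes of low oxygen and glycolysis, 20 of 21 were above 0 and 7 higher at an unadjusted p under 0.05, with Egln3 (1.30), Slc2a1 (0.99) and Pgk1 (0.82) at the top, while Vegfa stood at 0.17 and Car9 at -0.03. The unfolded protein response had 21 of 21 above 0 and 8 higher, led by the chaperone gene Calr (0.72). The stress transcription factor genes Ddit3 (0.15) and Atf4 (0.11) did not reach an unadjusted p of 0.05.

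Markers of myeloid cells had the highest median of any list, 0.75 (0.59 without both narrow arrays), with 15 of 23 higher and 1 lower at an unadjusted p under 0.05. Laptm5, a lysosomal protein of blood cells, read 5.49, 6.20, 6.66 and 6.52 in wild-type arrays, ascending pools first, against 7.62, 7.42, 7.73 and 7.34 in knockout arrays (1.31, SE 0.21, adjusted p 0.0820). The macrophage marker Adgre1 read 5.09 to 6.05 against 6.34 to 6.73 (0.88, SE 0.18, adjusted p 0.132). The neutrophil genes differed among themselves: S100a8 stood at 1.96 and S100a9 at 1.40, while Ly6g stood at -1.40. Relative to the mean of each marker on the 8 arrays, the 23 markers averaged -0.25 and -0.77 in wild-type ascending, -0.09 and -0.26 in wild-type descending, 0.56 and 0.35 in knockout ascending and 0.29 and 0.15 in knockout descending aorta. Every knockout array was above every wild-type array. This was not particular to myeloid markers. It also held for contractile smooth muscle markers and for the elastic fibre, collagen enzyme and TGF-beta target lists, among others.

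Gene groups that myeloid cells also express are given beside them. Complement genes had 6 of 14 higher at an unadjusted p under 0.05, led by C4b and the receptor gene C3ar1 (1.03), with a median of 0.45, which was 0.28 without both narrow arrays, 0.29 without wild-type ascending replicate 2 alone and 0.26 after the second quantile normalization. Of chemokine and cytokine genes 4 of 23 were higher: Ccl8 (1.09), Ccl7 (1.06), Ccl6 (0.95) and Ccl2 (0.80). Ctss, Hcls1 and the oxidase subunit gene Cybb (0.82) are also genes of these cells. The part of the myeloid marker shift in these values was not tested.

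Contractile smooth muscle markers had 14 of 17 above 0 and 5 higher at an unadjusted p under 0.05, with a median of 0.23 (0.11 after the second quantile normalization). Their median level of 8.51 lay in the brightest of the 5 level groups, where the median change of all genes was 0.24. In that group 20.8% of genes were higher, so the list stood near its background. Acta2 stood at 0.07 (SE 0.17), Tagln at 0.31 (SE 0.17), Cnn1 at 0.23 (SE 0.17) and Myh11 at 0.17 (SE 0.18; -0.03 after the second quantile normalization), while Smtn, the gene of smoothelin, read 7.77 to 8.17 against 8.49 to 8.69 (0.58, SE 0.18, adjusted p 0.313). The mean deviation of the list was -0.22 to -0.06 in wild-type and 0.06 to 0.25 in knockout arrays. Fibroblast markers had 1 of 13 higher, with a median of 0.25, which was 0.05 without both narrow arrays, 0.13 without wild-type descending replicate 2 alone and 0.06 after the second quantile normalization.

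**Figure D5:**
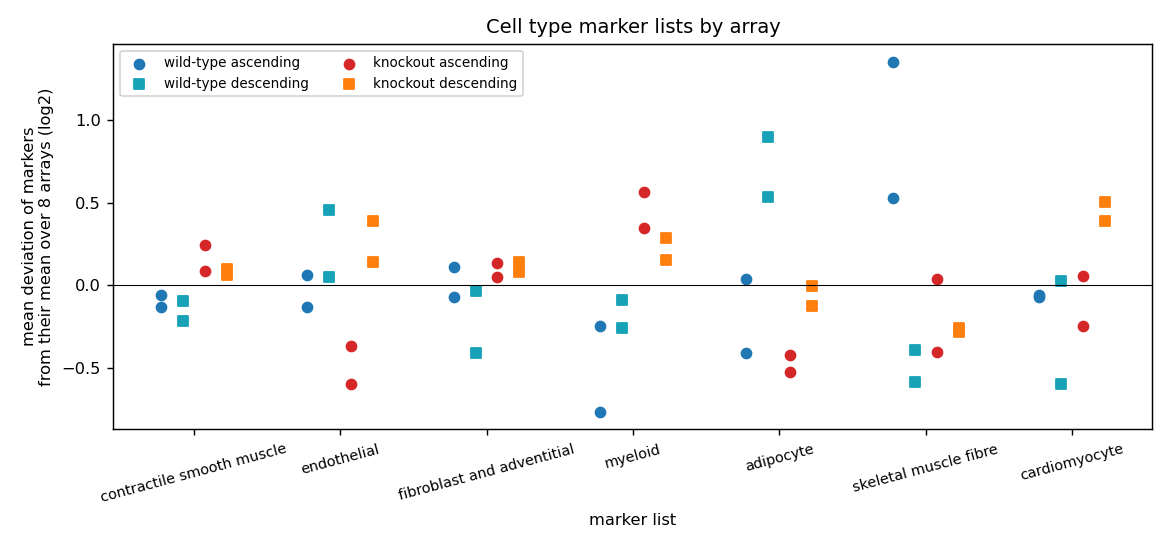
Mean deviation of each cell type's markers from their mean over all 8 arrays (vertical axis, log2), 1 point per array, with colours and shapes for genotype and segment. For myeloid and for contractile smooth muscle markers every knockout array lies above every wild-type array, whereas skeletal muscle markers stand apart in wild-type ascending aorta, at 0.53 and 1.36.

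Other marker lists had medians below 0, or medians of unlike size in the 2 segments, a difference that was not tested. Adipocyte markers, brown fat included, had 8 of 19 lower and none higher at an unadjusted p under 0.05 (median -0.35). Ucp1, the uncoupling protein of brown fat, read 5.37 and 4.75 in wild-type ascending, 8.80 and 7.04 in wild-type descending, 4.22 and 4.42 in knockout ascending and 4.78 and 4.36 in knockout descending aorta (-2.05, SE 0.35, adjusted p 0.0989), so the wild-type descending pools stood apart. Adipoq, the adiponectin gene, stood at -1.45 and, with Cox8b, was lower in both segments. The mean deviation of the list was 0.04 and -0.41 in wild-type ascending, 0.90 and 0.54 in wild-type descending, -0.42 and -0.52 in knockout ascending and -0.12 and 0.00 in knockout descending aorta. The part of this shift in the genes lower in both segments, Cox8b among them, was not tested.

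Endothelial markers had 5 of 19 lower and 2 higher, with a median of -0.25 (-0.49 after the second quantile normalization). The median was -0.65 in the ascending and -0.01 in the descending aorta. Egfl7 (-0.79) and Cldn5 (-0.80) were the lowest, and Eng (0.82) and Erg (0.72) were the higher 2. Skeletal muscle fibre markers had a median of -0.83 in the ascending and 0.28 in the descending aorta, with 2 of 19 lower in the average (median -0.50, and -0.29 without wild-type ascending replicate 2), and Myh8, a perinatal myosin gene, read 6.57 and 9.91 in the 2 wild-type ascending pools. Cardiomyocyte markers had medians of -0.02 and 0.53. Tnnc1, which encodes a troponin C of heart and slow muscle, read 7.14 to 8.02 in wild-type and 8.97 to 10.09 in knockout arrays (1.74, SE 0.29, adjusted p 0.0942), and the atrial myosin light chain gene Myl7 stood at 0.81 and 2.28 in the 2 segments. Whether these shifts had a part in the changes of the 16 genes was not tested.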

How the data were processed

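RNA of 8 pools was hybridised to 1-colour Affymetrix arrays, 1 array per pool, per the labels. The authors deposited 1 log2 value per probe set and array, made with RMA in Affymetrix Expression Console per the submitters' processing notes, and no version or probe set definition is stated there. Background correction and probe summaries of this kind compress the differences of dim genes. The platform annotation gave 1 symbol to 23521 of 41345 probe sets, several to 1814 and none to 16010. The brightest probe set was kept for each of the 1082 genes with several, which left 22180 genes, of which 21994 matched a RefSeq gene of GRCm38.p6 by identifier.

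The fit used limma 3.58.1 (under R 4.3.3) and gave each of the 4 groups its own mean (4 residual and 5.52 prior degrees of freedom). The p-values were adjusted over all genes. The p-values rest on the spread between 2 pools a group. They take ascending and descending pools as independent, although the labels do not say whether these came from the same pups. Genotype permuted within segments has 36 assignments, so the smallest exact two-sided p for 1 gene is 0.0556, which each of the 16 called genes reached. They were picked on the same arrays, so reaching it adds no further support.

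Members, 35 gene lists (618 of 671 entries measured) and tests were chosen with earlier results of these data known. Genes picked out for the text were the called genes and up to 12 higher and 12 lower genes with the smallest p in both segments. Genes whose names mark them as predicted, microRNA, small nucleolar RNA or chemoreceptor genes were left out of the latter. Up to 4 members with the smallest p per list and a set of wall genes were also picked. Other members were picked after their values were seen. Lists were described by counts and medians without a test. Upstream sequences come from RefSeq. The alternatives were other scalings, filters, models, probe set rules and arrays left out; 2 scalings over every probe set were added after seeing the data.

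The fitting code was checked on test data with known answers, simulated for 22180 genes with 50 changed at each size. Of log2 changes of 0.5, 1, 2 and 3, 2%, 46%, 98% and 100% passed the adjusted p, with 12 false calls. A gene that did not pass is therefore not shown to be unchanged. Tables were made with pandas 2.3.3 and scipy 1.17.1 and figures with matplotlib 3.10.9 in Python 3.11.15.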

Additional observations from a re-analysis of the deposited data

Results flagged for a closer look

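Among the 16 called genes, 2 had a knockout effect that differed between the segments at an unadjusted p under 0.05 in limma's test of the difference itself. Neither difference passed after adjustment over all genes (adjusted p 1.00 for both). The descending change minus the ascending change was -2.19 for Olfr507 (95% interval -3.23 to -1.14, unadjusted p 0.000985), whose 2 wild-type descending pools were its brightest arrays. It was -0.85 for Vegfd (95% interval -1.69 to -0.01, unadjusted p 0.0468), whose wild-type ascending pools were its dimmest.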

How the results depend on the processing

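The 16 calls became 2 after a second quantile normalization (Col8a1 and Col11a1), 35 without the dimmest 25% of genes, 1 when every probe set was tested (one without a gene name, and 0 of the 16), 25 without both narrow wild-type arrays and 50 at an adjusted p under 0.1. With 1 array left out they ranged from 0 to 50. Genes higher in both segments (227) became 123 after the second quantile normalization and ranged from 114 to 416 with 1 array left out. Genes lower in both (44) became 29 without the dimmest genes, 23 with arrays centred on the median of every probe set and 123 without both narrow arrays, and ranged from 21 to 175. Deviations of same-numbered arrays correlated across genes at 0.29 between the wild-type groups and 0.12 between the descending groups. In the other 4 pairs of groups they correlated at -0.08 to 0.09. The main fit took no pairing, but these values do not settle whether there was one. The labels do not say whether ascending and descending pools came from the same pups. If they did, the pools of a genotype were not independent, as the fit takes them to be. With the replicate number as a block 19 genes were called, all 16 included, and 69 were lower in both segments. The difference between segments had 1 call without both narrow arrays and 0 with any 1 array left out. Some changes near 0 turned sign. With 1 array left out Epb42 ranged from -0.44 to 0.0033, Rhag from -0.38 to 0.082, Hemgn from -0.049 to 0.33 and Col1a2 from -0.057 to 0.11. Rhag was also 0.060 without both narrow arrays, and Myh11 was -0.032 after the second quantile normalization. The cause was not tested. Of 35 list medians, 20 moved by over 1.5 times after the second quantile normalization and 9 without both narrow arrays. Dim genes are limited by signal over background, for which the table holds no measure.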

Other observations

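Over all genes 7.57% were higher and 3.83% lower at an unadjusted p under 0.05 in the averaged effect. In the brightest level group 20.8% were higher, and in the next 10.7%. Genes of cholesterol synthesis, whose median level of 5.91 lay in that next group, had 7 of 18 higher at this threshold, with a median change of 0.36. Hmgcs1, an early enzyme of the pathway, read 5.35, 6.12, 6.72 and 6.39 in wild-type arrays, ascending pools first, against 7.21, 7.35, 6.86 and 7.18 in knockout arrays (1.00, SE 0.22, limma adjusted p 0.170). The lowest knockout array was just above the highest wild-type array, and the change was 1.54 in the ascending and 0.46 in the descending aorta. Cyp51 (0.84), Msmo1 (0.80), Srebf2 (0.69), the gene of the factor that governs the pathway, and Fdps (0.68) were also higher at that threshold, while Lss (0.16), Dhcr7 (0.02) and Mvd (-0.06) were not. Leaving out both narrow wild-type arrays gave a list median of 0.31.

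Cell cycle genes had 4 of 27 higher. Their median level of 6.78 lay in the brightest level group, where 20.8% of all genes were higher. The median change was 0.04 in the ascending and 0.50 in the descending aorta and 0.06 in the average without both narrow arrays. Cdk1, the kinase that starts mitosis, read 8.03 and 6.93 in wild-type descending pools, against 8.67 and 8.58 in knockout ones, so its change there moved with the narrow pool. Interferon-stimulated genes had 2 of 14 higher, Irf7 (0.83) and Stat2 (0.67). Their median level of 5.83 lay in the level group where 10.7% of all genes were higher. The median change was 0.24, which was 0.03 without both narrow arrays and 0.12 without knockout ascending replicate 1. Markers of T cells and thymocytes had 4 of 11 higher (median 0.36, and 0.09 without wild-type descending replicate 1 or 0.56 without wild-type descending replicate 2), those of neurons, chromaffin and Schwann cells 3 of 12 (median 0.27, and 0.14 without knockout descending replicate 2), erythroid markers 1 of 6 and mesothelial and epithelial markers 1 of 13, with 2 lower. Npy, a peptide gene of sympathetic neurons, read 5.91 to 6.19 in wild-type and 6.52 to 7.34 in knockout arrays (0.89, SE 0.21, limma adjusted p 0.198). The keratin genes Krt18 (0.83) and Krt14 (-0.55) differed in direction.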
